A study of Mus musculus with 30 samples.

Results

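The transcripts described here are those of C2C12 myotubes given leucine alone during serum deprivation (LEU) against serum deprivation alone (SD). They come from 12 of the 30 libraries of the study, the 6 of LEU and the 6 of SD, which were chosen by their sample labels and described across all genes. C2C12 is a mouse myoblast line, labelled as WT, that was differentiated in low glucose DMEM with 2% horse serum for 4 days and then kept for 4 further days, 8 days in total. During the second period SD received no serum, LEU no serum and 500 nM leucine, MET no serum and 100 nM metformin, MET+LEU no serum with both agents, and 2% HS stayed in horse serum, with 6 libraries in each group. All groups therefore share the same line and the same 4 days of differentiation, and SD, LEU, MET and MET+LEU share the loss of serum. Standard DMEM formulations already contain leucine, so LEU is an addition to the medium rather than leucine against none.

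Leucine is an essential branched-chain amino acid that muscle both incorporates into protein and breaks down. In the cell it binds Sestrin proteins, which releases the kinase complex mTORC1 to promote translation and ribosome production, while shortage of amino acids activates GCN2 and ATF4 and raises transporters and synthesis enzymes. Differentiated C2C12 cultures hold multinucleated myotubes, which have left the cell cycle, beside mononucleated reserve cells, some of which can divide again.

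Total counts on genes were between 12813903 and 18275801 in the SD libraries and between 14091627 and 17514000 in the LEU libraries. The labels describe separate samples but do not say that they came from separate cultures, so the p-values measure the spread between these samples, which may be technical. Muscle identity was clear in both groups. Myog, the myogenic factor that drives terminal differentiation, had a median of 1052 CPM (read counts scaled to a common library size, with TMM factors) in SD and 1045 in LEU, and Ttn, the giant spring of the sarcomere, 24940 and 26350. Marker lists of adipocytes, macrophages and endothelial cells were close to 0, with summed levels of at most 9.38, 6.71 and 2.57 CPM in any of the 12 libraries. Fibroblast markers, collagens among them, were not near 0, with sums of 5256 to 5574 CPM in SD and 5115 to 5487 CPM in LEU. Myotube markers summed to 9350 to 11060 CPM in SD and 10170 to 10760 CPM in LEU. For reserve myoblast markers the sums were 1989 to 2238 CPM and 2031 to 2134 CPM. In MET+LEU replicate 6, which enters the model but not the comparison, nuclear ribosomal RNA took 5.85% of the counts and mitochondrial ribosomal RNA 7.64%, against at most 1.96% and 0.760% in the other 29 libraries, and the counts of genes changed are therefore given with and without it.

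The first question was which transcripts LEU changed during SD. Of 15907 genes tested, 88 (0.553%) passed an adjusted p under 0.05 (edgeR quasi-likelihood test, Benjamini-Hochberg adjustment over all genes tested), 37 of them higher (0.233%) and 51 lower (0.321%). The lower genes included 18 of mitosis, 3 of DNA replication, 4 replication-dependent histones, 3 amino acid transporters and 3 extracellular matrix genes, and the higher genes included ribosomal proteins, respiratory chain subunits and sarcomere genes. The changes were small. Log2 fold changes ran from -0.84 to 0.76, with a median size of 0.37, and 0 of the 88 reached 1 in size. At an unadjusted p under 0.05 there were 1588 genes. In 52 of the 88 genes the LEU libraries did not overlap with the SD libraries. Over all genes, LEU lay above every SD library in 0.786% and below every SD library in 0.522%. Without MET+LEU replicate 6 in the model, 269 genes of 16062 passed (1.67%), 168 higher (1.05%) and 101 lower (0.629%), among them all 88. Leaving out a LEU or SD library gave between 43 and 105 genes, with fewer than 59 without LEU replicates 2 (49), 3 (56) or 4 (43) or without SD replicates 2 (55), 4 (55) or 6 (51). All 88 kept their direction in these 12 fits and 35 passed in every one.

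**Figure D1:**
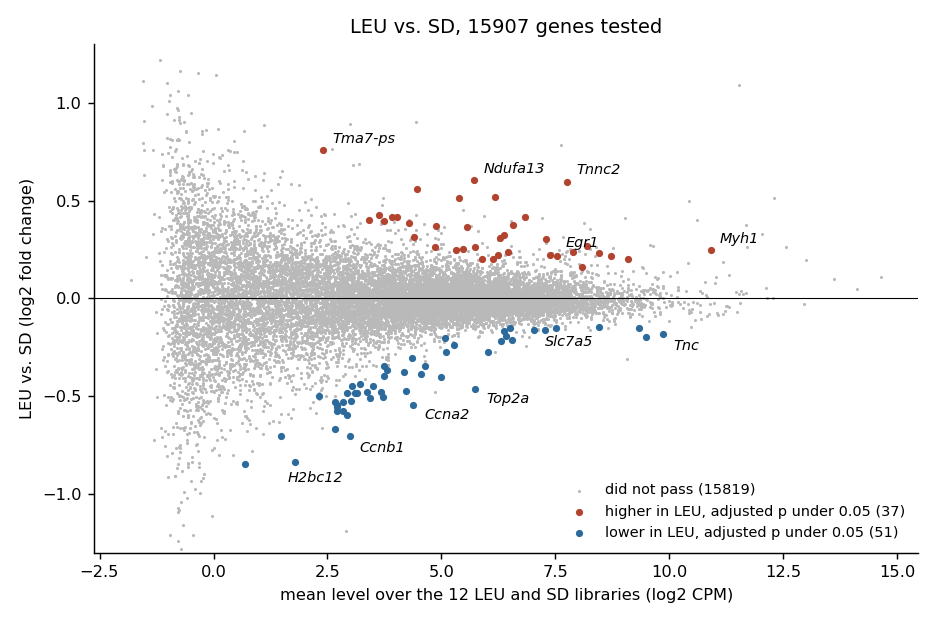
LEU vs. SD log2 fold change (vertical axis) against the mean level over the 12 LEU and SD libraries in log2 CPM (horizontal axis), with each point a gene, red for the 37 higher and blue for the 51 lower genes with an adjusted p under 0.05 and grey for the others. Genes called lower reached -0.84 and genes called higher 0.76, and 3 genes that did not pass lie beyond the vertical axis.

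Mitosis transcripts were the most numerous group downregulated by LEU. Of the 63 genes on this list, 18 were lower and 0 were higher, against 0.321% of all genes lower, and all 63 had a negative log2 fold change, 51 of them with an unadjusted p under 0.05. Their median log2 fold change was -0.35, where all genes tested had a median of -0.01. The mean log2 CPM of the list, set to 0 at the SD mean, was between -0.10 and 0.16 in SD and between -0.46 and -0.23 in LEU, so every LEU library lay below every SD library. In 15 of the 63 genes every LEU library lay below every SD library, against 0.522% of all genes. The count of lower genes by the test was 28 without MET+LEU replicate 6. It was between 10 and 19 when a LEU or SD library was left out, and fell to 10 without LEU replicate 4 or without SD replicate 6. In bulk RNA, fewer dividing cells and less of these transcripts per cell cannot be told apart.

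Ccnb1 (ENSMUSG00000041431, chr13:100778650-100786570 in GRCm38) encodes cyclin B1, the partner of Cdk1 at entry into mitosis. Its level was 8.86 CPM at the lowest, 10.3 at the median and 10.99 at the highest in SD, and 5.69, 6.11 and 6.71 in LEU. The groups did not overlap. The log2 fold change was -0.70 ± 0.10 (standard error, n = 6 and 6; edgeR adjusted p = 0.000149), so that its level fell by 38.5%, and the gene passed in all 12 fits that left out a LEU or SD library.

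Ccna2 (chr3:36564865-36572150) encodes cyclin A2, which acts in S phase and G2. SD libraries had 23.2, 24.9 and 28.2 CPM (lowest, median and highest) and LEU libraries 14.2, 17.1 and 19.4 CPM, again without overlap. The log2 fold change of Ccna2 was -0.54 ± 0.08 (edgeR adjusted p = 7.92e-05), the smallest adjusted p of the comparison.

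Ncapd2 (chr6:125168007-125191701), a condensin subunit that compacts chromosomes, had 25.9 to 29.6 CPM in SD with a median of 27.9, and 20.8 to 23.7 CPM in LEU with a median of 21.6. It fell by 0.35 on the log2 scale (edgeR adjusted p = 0.00105) with no overlap between the groups. Top2a (chr11:98992943-99024189), the topoisomerase that untangles sister chromatids, had 52.2, 62.8 and 74.4 CPM in SD and 39.6, 45.4 and 52.4 CPM in LEU, where 1 LEU library lay just inside the SD range. Its log2 fold change was -0.46 (edgeR adjusted p = 0.00203).

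The other 14 called mitosis genes covered several steps of division. Spindle and cytokinesis genes were Aspm (-0.47), the spindle pole protein, Anln (-0.40), the anillin of the contractile ring, Kif11 (-0.40), a motor that separates spindle poles, Kif20a (-0.48), Tpx2 (-0.37), Prc1 (-0.39), Racgap1 (-0.27), Ect2 (-0.45) and Hmmr (-0.48), all as LEU vs. SD log2 fold changes. Kinetochore and chromatin genes were Knl1 (-0.51), the kinetochore scaffold, Cenpa (-0.49), the histone variant of centromeres, Aurkb (-0.50), the kinase of the chromosomal passenger complex, and Ncaph (-0.45), another condensin subunit. Foxm1 (-0.36), the transcription factor of late cell cycle genes, completed the list.

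Some well-known proliferation markers did not pass. Mki67, which encodes the Ki-67 antigen, had 63.2, 78.7 and 98.9 CPM in SD and 58.3, 64.8 and 73.7 CPM in LEU, and its log2 fold change of -0.27 had an edgeR adjusted p of 0.367. Cdk1, the mitotic kinase itself, had a log2 fold change of -0.30 and an adjusted p of 0.175. The LEU and SD libraries of both genes overlapped.

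Promoters of the called mitosis genes are shown because many promoters of late cell cycle genes are known to carry the cell cycle genes homology region (CHR) and CCAAT boxes. The sequences are the 300 bases from 250 before to 50 after the start, in RefSeq annotation of GRCm38.p6, for the 4 called mitosis genes with the smallest adjusted p among those with an entry in the promoter table. Capitals mark matches on either strand to TTTGAA (CHR), TTCGAA (a CHR variant), CCAAT and TTTGGCGC or TTTCGCGC (E2F sites), none of which contains another.
Ccnb1 (chr13:100786437-100786736, minus strand): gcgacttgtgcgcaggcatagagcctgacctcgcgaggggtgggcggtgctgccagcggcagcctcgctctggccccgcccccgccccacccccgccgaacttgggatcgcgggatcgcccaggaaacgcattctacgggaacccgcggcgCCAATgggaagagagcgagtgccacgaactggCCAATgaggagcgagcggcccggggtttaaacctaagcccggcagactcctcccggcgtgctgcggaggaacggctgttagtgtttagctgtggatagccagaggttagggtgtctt
Ncapd2 (chr6:125191537-125191836, minus strand): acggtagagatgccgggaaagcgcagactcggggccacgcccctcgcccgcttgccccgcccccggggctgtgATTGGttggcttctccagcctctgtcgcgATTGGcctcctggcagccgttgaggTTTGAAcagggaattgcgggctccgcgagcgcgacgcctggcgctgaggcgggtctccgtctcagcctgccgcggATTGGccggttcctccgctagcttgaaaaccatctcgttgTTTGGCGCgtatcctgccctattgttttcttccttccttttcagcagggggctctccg
Top2a (chr11:99024140-99024439, minus strand): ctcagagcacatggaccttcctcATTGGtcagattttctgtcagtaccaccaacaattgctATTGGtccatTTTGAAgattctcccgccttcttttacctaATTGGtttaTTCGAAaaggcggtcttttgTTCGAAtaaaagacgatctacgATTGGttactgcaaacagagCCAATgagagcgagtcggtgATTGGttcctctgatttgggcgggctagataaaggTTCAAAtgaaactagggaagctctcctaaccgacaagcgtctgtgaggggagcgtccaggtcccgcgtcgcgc
Aspm (chr1:139454523-139454822, plus strand): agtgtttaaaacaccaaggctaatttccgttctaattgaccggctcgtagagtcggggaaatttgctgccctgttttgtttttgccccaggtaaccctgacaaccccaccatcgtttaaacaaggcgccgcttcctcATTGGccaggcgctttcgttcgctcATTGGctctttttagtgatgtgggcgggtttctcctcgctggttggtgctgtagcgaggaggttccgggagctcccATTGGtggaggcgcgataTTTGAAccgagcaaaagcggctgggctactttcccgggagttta

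Ccnb1, with the largest fall of the list, held CCAAT and neither TTTGAA nor TTCGAA in this window. The windows of Ncapd2, Top2a and Aspm held both CCAAT and a searched CHR form. Other CHR forms were not searched, so the absence of a match does not show that the Ccnb1 window lacks a CHR. Of the 51 lower genes, 43 had a promoter in the table, and TTTGAA or TTCGAA occurred in 24 of them (55.8%). The same letters occurred in 1 of the 29 matched promoters of the 37 higher genes (3.45%), in 13.6% of the 10119 matched promoters of genes tested and in 19.4% of all 27025 promoters. CHR letters together with CCAAT occurred in 19 of the 43 lower genes (44.2%) and in 5.89% of genes tested. Mitosis genes carried them whether or not they were called, in 34 of 52 matched promoters (65.4%) of the whole list and 9 of 13 (69.2%) of those lower in LEU. A match is a description of the sequence, and binding was not measured.

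Of the genes that passed and were on no list, the following have known roles in division or the cell cycle. They form no fixed list, were picked out after their values were seen, and include both directions. Kif14 (-0.58) and Kif18b (-0.53) encode mitotic kinesins, Kntc1 (-0.55) and Knstrn (-0.53) kinetochore proteins, Espl1 (-0.53) the separase that cleaves cohesin, Cdca5 (-0.84) sororin, which protects cohesin, Iqgap3 (-0.48) a scaffold of dividing cells, Gas2l3 (-0.44) a cytoskeletal linker in cytokinesis, Prr11 (-0.49) a cell cycle regulator, Ncapg2 (-0.31) a condensin II subunit and Tubb5 (-0.15) a beta tubulin, as log2 fold changes. Tcf19 (-0.56), a transcription factor of the G1/S transition, was also lower, and its SD libraries (6.16 to 8.78 CPM) and LEU libraries (4.02 to 5.93 CPM) did not overlap. Anapc13 (0.42), a subunit of the anaphase-promoting complex, and Cetn3 (0.38), a centrin of centrosomes, were higher.

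Of 60 DNA replication and repair genes, 3 were lower and 0 higher, against 0.321% and 0.233% of all genes, with 53 negative log2 fold changes and a median of -0.15. The count was 7 lower without MET+LEU replicate 6, and 1 lower without LEU replicate 1, 2, 3 or 4 or without SD replicate 6. The mean of the list lay between -0.10 and 0.12 in SD and between -0.23 and -0.12 in LEU, with no overlap. Cdc6, which loads the MCM helicase, had 2.95, 3.44 and 4.07 CPM in SD and 1.71, 2.00 and 3.06 CPM in LEU (log2 fold change -0.70, edgeR adjusted p = 0.0335). Mcm3, a subunit of that helicase, fell by 0.35 (adjusted p = 0.0298), and Rrm2, the ribonucleotide reductase subunit that limits the supply of deoxynucleotides, fell by 0.21 (adjusted p = 0.00477), both on the log2 scale. Of these, Rrm2 passed in all 12 fits with a LEU or SD library left out, and Cdc6 and Mcm3 did not in 8 and 9 of them.

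Replication-dependent histone genes, whose mRNAs lack a poly(A) tail and were kept here by ribosomal RNA depletion, were measured as 56 clustered genes. Of these, 4 were lower and 1 higher, against 0.321% and 0.233% of all genes. The median log2 fold change was -0.14, with 43 negative values. The median was -0.08 without SD replicate 6, and 5 were lower and 3 higher without MET+LEU replicate 6. H2bc12 (chr13:22035870-22036345) had 3.31, 4.48 and 5.58 CPM in SD and 1.62, 2.67 and 3.16 CPM in LEU, without overlap, and its log2 fold change was -0.84 ± 0.17 (edgeR adjusted p = 0.01). H3c3 (-0.67), H2bc7 (-0.58) and H4c2 (-0.51) were the other lower ones. H1f4, a linker histone, went the other way, with 84.6, 99.8 and 119 CPM in SD and 117, 134 and 141 CPM in LEU (log2 fold change 0.42, edgeR adjusted p = 0.00427). These genes are near-identical in sequence, and how reads shared between copies were counted was not stated, so the values of single copies are uncertain. The list means of SD (-0.22 to 0.21) and LEU (-0.22 to -0.02) overlapped.

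**Figure D2:**
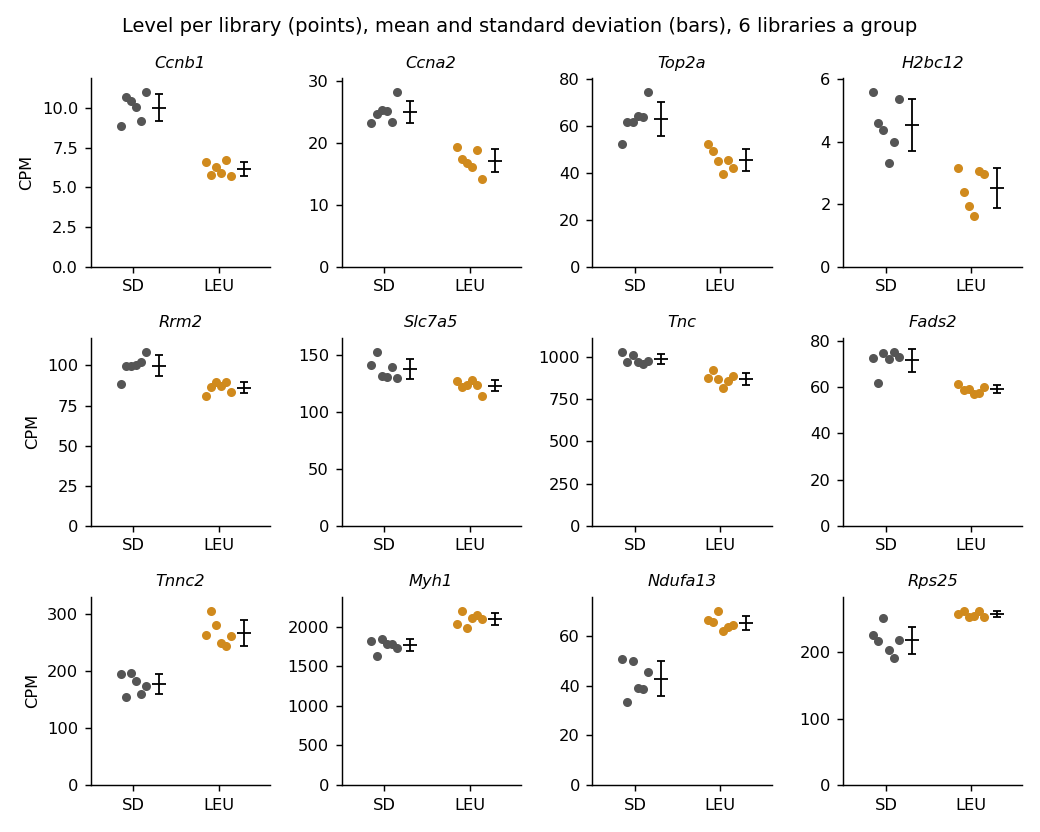
Level of 12 genes in CPM (vertical axes, from 0) in the 6 SD libraries (grey points) and the 6 LEU libraries (orange points), with the mean and standard deviation as bars. Ccnb1 falls from a median of 10.3 to 6.11 and Tnnc2 rises from 177 to 262, while Slc7a5 and Tnc fell by 10.6% and 11.8%.

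The mitosis list in LEU was also set beside the groups with serum or metformin. Taking the SD mean as 0, the list mean of LEU had a median of -0.33, against -0.01 for SD and -0.12 for 2% HS. With metformin the median was -0.16 for MET and -0.51 for MET+LEU. MET vs. SD had 0 of the 63 genes higher and 0 lower in the edgeR test, where 0.0754% and 0.0817% of all genes were. SD vs. 2% HS had 11 higher and 0 lower, against 13.9% of all genes higher and as many lower, and the 2% HS libraries (-0.20 to 0.03) did not overlap with LEU (-0.46 to -0.23). The replication list had a median of -0.20 in 2% HS and -0.16 in LEU, and these libraries overlapped. For Ccnb1 the medians were 10.1 CPM in 2% HS, 7.80 in MET and 5.57 in MET+LEU, beside 10.3 in SD and 6.11 in LEU. These comparisons share the SD libraries and are given side by side.

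**Figure D3:**
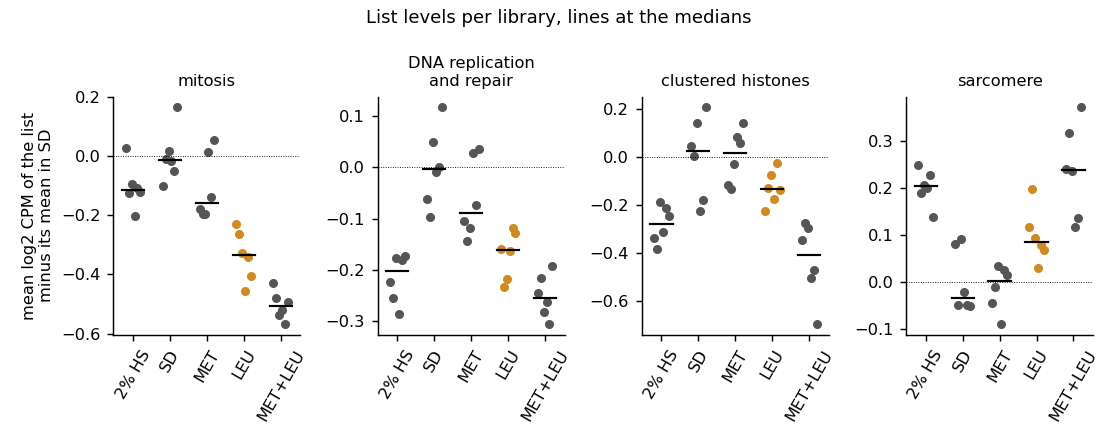
Mean log2 CPM of the genes of 4 lists in each library, minus the mean of the SD libraries (vertical axes), for the 5 groups, with LEU in orange and lines at the medians. In the mitosis panel every LEU library (-0.46 to -0.23) lies below every SD library (-0.10 to 0.16), while in the panel of clustered histones LEU and SD overlap.

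A second addition of leucine was measured on independent libraries, as MET+LEU vs. MET, which shares no library with LEU vs. SD. In that comparison 1382 genes passed (8.69%), 881 higher (5.54%) and 501 lower (3.15%). Of the 51 genes lower in LEU vs. SD, 50 had a negative log2 fold change there, 39 were lower by the test and 0 were higher, with a median of -0.38. Of the 37 genes higher in LEU vs. SD, 34 were positive, 21 passed as higher and 1, Egr1, passed as lower, with a median of 0.23. Over all genes tested 61.2% had the same sign in both comparisons. Without MET+LEU replicate 6, when 726 genes passed (4.52%, with 2.65% higher and 1.87% lower), 51 of the 51 were negative and 34 lower, and 35 of the 37 positive and 14 higher. Of the 63 mitosis genes, 46 were lower in MET+LEU vs. MET with a median of -0.42 (43 without MET+LEU replicate 6), and of the 56 clustered histone genes 29 were lower with a median of -0.43. H2bc12 fell by 0.92 on the log2 scale there (adjusted p = 0.00156), and Neurl1b, a ubiquitin ligase gene of Notch signalling, fell by 0.60 in LEU vs. SD and by 1.06 in MET+LEU vs. MET.

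**Figure D4:**
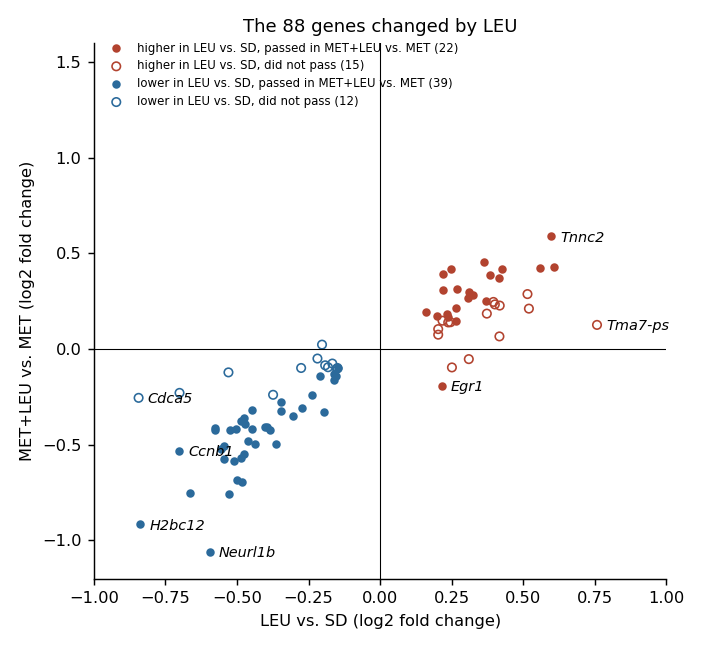
Log2 fold change in MET+LEU vs. MET (vertical axis) against that in LEU vs. SD (horizontal axis) for the 88 genes changed by LEU, red for higher and blue for lower, filled where the gene also passed in MET+LEU vs. MET. Of the 51 blue points 50 lie below 0 on the vertical axis, and Egr1 is the filled red point below 0.

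Whether the effect of leucine differed with metformin was tested as the interaction, that is (MET+LEU vs. MET) minus (LEU vs. SD). It passed for 8 genes (0.0503%), and Egr1 was the only one of the 88 among them. Egr1, an immediate early transcription factor of the ERK pathway, had 162, 169 and 182 CPM in SD and 186, 197 and 212 CPM in LEU, without overlap. Its log2 fold change was 0.22 in LEU vs. SD (edgeR adjusted p = 0.0037) and -0.19 in MET+LEU vs. MET (adjusted p = 0.00232), a difference of -0.41 ± 0.06 (adjusted p = 9.49e-05). Egr1 was also higher in MET vs. SD (0.195, edgeR adjusted p = 0.0192), and MET+LEU vs. SD did not pass (0.005, adjusted p = 0.955). The fall in MET+LEU vs. MET was thus from a raised MET level to one near SD. On the list of 32 immediate early and ERK feedback genes, Egr1 was the only one that passed in LEU vs. SD, where 0.553% of all genes did. Phlda1, a target of the same pathway that was not chosen by rule, was higher by 0.25 in LEU vs. SD and was -0.10 in MET+LEU vs. MET, where it did not pass.

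LEU and MET were also compared directly. In that test 12 genes passed (0.0754%), 7 higher (0.044%) and 5 lower (0.0314%) in LEU, and 1380 had an unadjusted p under 0.05. Ccna2 (-0.44), Kif20a (-0.46), Tubb5 (-0.17), Pclaf (-0.62), which binds the replication clamp, and Cxcl12 (-0.26), a chemokine, were lower in LEU than in MET. Those higher included Ttn (0.27), Best3 (0.48), Coro6 (0.21), Pde4dip (0.15), Mical3 (0.17) and mt-Tw (0.52), a mitochondrial transfer RNA, as log2 differences. With a model of these groups alone 164 genes passed, and without MET+LEU replicate 6 in the model 44 did (0.274%).

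The second question was whether leucine sensing and amino acid supply responded at the transcript level. Genes of mTORC1 and leucine sensing were measured for 42 members, and 0 passed in either direction in the edgeR test. At an unadjusted p under 0.05, 0 were higher and 2 lower, where 1588 of all 15907 genes reached that p. Of the 42, 31 had a negative log2 fold change, with a median of -0.02. The list means of SD (-0.039 to 0.079) and LEU (-0.058 to -0.008) overlapped. Sesn2, which encodes the cytosolic leucine sensor Sestrin 2, had 22.7, 23.7 and 28.8 CPM in SD and 21.4, 23.1 and 25.5 CPM in LEU (log2 fold change -0.09 ± 0.07, adjusted p = 0.773). Its paralogs Sesn1 (-0.01) and Sesn3 (-0.02), the arginine sensor genes Castor1 (-0.34) and Castor2 (0.03), the Rag GTPase gene Rragd (0.03), the S6 kinase gene Rps6kb1 (0.05) and the translation repressor gene Eif4ebp1 (0.02) had adjusted p of 0.605 or more. The SD and LEU libraries of these genes overlapped.

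A few amino acid transporters were lower. Of 20 on the list, 3 were lower and 0 higher, against 0.321% and 0.233% of all genes. The list had 17 negative log2 fold changes and a median of -0.07, and the list mean of every LEU library (-0.119 to -0.044) lay below every SD library (-0.039 to 0.058). Slc7a5, the light chain of the LAT1 carrier that imports leucine, had 130, 136 and 153 CPM in SD and 114, 124 and 128 CPM in LEU, without overlap (log2 fold change -0.16 ± 0.04, edgeR adjusted p = 0.0441). Slc7a1, a carrier of cationic amino acids, fell by 0.15 (adjusted p = 0.036), and Slc1a4, a carrier of alanine, serine and cysteine, fell by 0.19 (adjusted p = 0.00489), each on the log2 scale and without overlap. Slc3a2, the heavy chain of LAT1 (-0.04), and Slc38a2, the inducible glutamine carrier (-0.07), did not pass. Slc1a4 passed in all 12 fits that left out a LEU or SD library, whereas Slc7a5 and Slc7a1 did not in 9 and 7 of them, and the list count was 1 without LEU replicate 1, 3, 4, 5 or 6 or without SD replicate 2. Slc7a5 was itself lower in SD than in 2% HS, where its median was 195 CPM, and its median was 120 CPM in MET and 114 CPM in MET+LEU. In MET vs. SD it was also lower (log2 fold change -0.18, edgeR adjusted p = 0.0407), and LEU vs. MET did not pass (0.015, adjusted p = 0.957). The transporter list had a median of -0.07 in MET vs. SD as well, so the fall was not particular to LEU.

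On the list of the integrated stress response, Slc7a5 was the 1 gene of 33 that passed, against 2 lower without MET+LEU replicate 6, and the median was -0.08. Over all genes 0.321% were lower. Of the 33, 26 had a negative log2 fold change, and 12 were lower and 2 higher at an unadjusted p under 0.05, where 1588 of all 15907 genes reached that p. For Atf4, the transcription factor of this response, the log2 fold change was -0.04 (adjusted p = 0.792), and for Asns, the asparagine synthetase, it was -0.14 (0.336), for Chac1 -0.20 (0.461), for Trib3 -0.50 (0.526) and for Ddit3 0.06 (0.909). Of 26 genes of branched-chain amino acid breakdown 0 passed, with 2 higher and 1 lower at an unadjusted p under 0.05. Among them Bcat2, the mitochondrial transaminase that takes the first step, had a log2 fold change of -0.04, Bckdha, a subunit of the dehydrogenase that follows, 0.05, and its kinase Bckdk -0.09. Of 20 cytosolic aminoacyl-tRNA synthetases, Lars for leucine (-0.02) among them, 0 passed, with 2 higher and 2 lower at an unadjusted p under 0.05. Lars2, the mitochondrial synthetase for leucine, varied from 79.9 to 302 CPM in SD and from 189 to 464 CPM in LEU and did not pass (0.78 ± 0.37, adjusted p = 0.473).

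Among transcripts of protein synthesis, 7 of 83 cytosolic ribosomal protein genes were higher in LEU, and 0 lower, against 0.233% of all genes higher. Their median log2 fold change was 0.09, and 60 were positive. Rps25 (chr9:44407139-44410427), of the small subunit, had 192, 218 and 252 CPM in SD and 253, 256 and 263 CPM in LEU, without overlap (log2 fold change 0.24 ± 0.05, edgeR adjusted p = 0.00473). Rpl13a (0.31), Rps12 (0.27), Rpl23a (0.23), Rpl21 (0.22) and Rpl7a (0.22) were also higher. The list means of SD (-0.18 to 0.17) and LEU (0.05 to 0.15) overlapped, and the SD libraries spread more widely. The shift was not particular to LEU. MET had list means of 0.06 to 0.16 and a median log2 fold change of 0.09 against SD, with 2 genes higher and 0 lower (0.0754% and 0.0817% of all genes). The count was 19 higher and 1 lower without MET+LEU replicate 6, and between 2 and 14 when a LEU or SD library was left out, with 2 without SD replicates 4 or 5 and 14 without SD replicate 3. The median was 0.05 without SD replicate 5. Translation factors (45 tested) and ribosome biogenesis genes (49 tested) had 0 that passed, with 3 higher and 6 lower, and 4 higher and 1 lower, at an unadjusted p under 0.05. That p was reached by 1588 of all 15907 genes.

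Nuclear genes of oxidative phosphorylation had 4 of 82 higher and 0 lower, against 0.233% and 0.321% of all genes, with a median of 0.07. The median was 0.03 without SD replicate 5, 0.04 without SD replicate 6 and 0.04 with an offset for gene length, and 9 were higher without MET+LEU replicate 6. The list means of SD (-0.16 to 0.15) and LEU (0.01 to 0.14) overlapped, and those of MET were 0.01 to 0.11. Ndufa13 (chr8:69894180-69902558), a complex I subunit, had 33.6, 42.1 and 50.8 CPM in SD and 62.1, 64.9 and 70.2 CPM in LEU, without overlap, and its log2 fold change of 0.61 ± 0.12 (edgeR adjusted p = 0.0112) was a rise of 52.2%. Atp5j2 (0.52) and Atp5j (0.33), both of ATP synthase, and Ndufb7 (0.37), of complex I, were the others, and these 4 passed in all 12 fits that left out a LEU or SD library. Of 78 mitochondrial ribosomal protein genes, Mrps21 (0.26) passed, against 0.233% of all genes higher. Ndufa13 was also at 64.0 CPM in MET and 80.2 CPM in MET+LEU at the median.

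Of the transcripts made in mitochondria, the ribosomal RNAs did not pass with all libraries in the model. mt-Rnr1, the small mitochondrial ribosomal RNA, had 1718, 2026 and 2261 CPM in SD and 3512, 4225 and 5230 CPM in LEU, without overlap. Its log2 fold change was 1.09 ± 0.50 (edgeR adjusted p = 0.47) with all 30 libraries and 1.09 ± 0.20 (adjusted p = 0.00257) without MET+LEU replicate 6. mt-Rnr2, the large one, had 1058, 1139 and 1371 CPM in SD and 1398, 1644 and 1920 CPM in LEU, with a log2 fold change of 0.50 and adjusted p of 0.826 and, without that library, 0.127. Of the 13 mitochondrial mRNAs 0 passed (11 positive, 3 higher and 0 lower at an unadjusted p under 0.05, median 0.25), and 2 did without MET+LEU replicate 6, among them mt-Cytb, of complex III (0.33, adjusted p = 0.0185). The list means of SD (-0.40 to 0.44) and LEU (0.17 to 0.33) overlapped, and the median was 0.15 without SD replicate 6. mt-Co1, of complex IV, had 10740 to 14040 CPM in SD and 12430 to 13890 CPM in LEU (0.10, adjusted p = 0.817). The share of all counts on mitochondrial ribosomal RNA was 0.282% to 0.367% in SD and 0.501% to 0.710% in LEU (two-sided p = 0.00216 by exact permutation, which is the lower limit for 6 against 6 libraries). In MET, without added leucine, replicates 4, 5 and 6 had 0.624%, 0.697% and 0.705%, inside the LEU range. MET replicates 1, 2 and 3 had 0.429%, 0.244% and 0.470%, below every LEU library. Shares as high as those of LEU were thus not particular to added leucine. In the order of the sample numbers, every library up to MET replicate 3 had at most 0.470% and every later library at least 0.501%. All SD libraries precede this break and all LEU libraries follow it, so leucine and sample order cannot be told apart for this share. MET+LEU vs. MET spans the break in part, as MET replicates 1, 2 and 3 precede it. Libraries were depleted of ribosomal RNA, and the part of that step in these values was not tested.

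Of 46 sarcomere genes 2 were higher and 0 lower, against 0.233% and 0.321% of all genes. The list had 35 positive log2 fold changes and a median of 0.08, and the list means of SD (-0.05 to 0.09) and LEU (0.03 to 0.20) overlapped. Tnnc2 (chr2:164777161-164779967), the fast troponin C that binds calcium, had 154, 177 and 196 CPM in SD and 243, 262 and 306 CPM in LEU (log2 fold change 0.60 ± 0.13, edgeR adjusted p = 0.036). Myh1 (chr11:67200052-67224575), the myosin heavy chain IIx, had 1626, 1782 and 1848 CPM in SD and 1981, 2104 and 2201 CPM in LEU (0.25 ± 0.06, adjusted p = 0.0361). Neither gene's libraries overlapped, yet both failed in 9 of the 12 fits with a LEU or SD library left out, and without MET+LEU replicate 6, where 9 sarcomere genes passed, their adjusted p were 0.000257 for Tnnc2 and 7.01e-06 for Myh1. The sarcomere count was 0 without LEU replicates 2, 4 or 6 or SD replicates 2, 4, 5 or 6, and 3 without SD replicate 3. In MET+LEU vs. MET 28 of the 46 were higher and 0 lower, against 5.54% and 3.15% of all genes, with a median of 0.25. Myh1 had a median of 2270 CPM in 2% HS, 1792 in MET and 2251 in MET+LEU.

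Myogenic factors and fusion genes gave no calls (0 of 29, with 3 higher and 2 lower at an unadjusted p under 0.05). Myod1 had a log2 fold change of 0.07, Myog -0.04, Pax7, which marks reserve cells, 0.07, Ckm, the muscle creatine kinase, -0.04 and the embryonic myosin gene Myh3 0.14. Atrophy genes were likewise without calls (0 of 21, with 2 higher and 0 lower at an unadjusted p under 0.05), and the ubiquitin ligase genes Trim63 (0.04) and Fbxo32 (-0.02) had overlapping libraries. Of 44 proteasome genes, Psmc3 (0.16), an ATPase of the regulatory particle, passed, against 0.233% of all genes higher. Of 39 genes of autophagy and lysosomes 0 passed, with 2 higher and 0 lower at an unadjusted p under 0.05.

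Growth arrest and secretion genes gave few calls. Of 30 CDK inhibitor and p53 target genes 0 passed, with 1 higher and 2 lower at an unadjusted p under 0.05, and Cdkn1a, which encodes p21, had 2211, 2339 and 2696 CPM in SD and 2136, 2268 and 2439 CPM in LEU (-0.08 ± 0.04, edgeR adjusted p = 0.558). Of 35 genes of the senescence-associated secretome and NF-kB, Igfbp7, a secreted binding protein of insulin-like growth factors, was higher, with 129, 142 and 154 CPM in SD and 164, 177 and 183 CPM in LEU (0.31 ± 0.07, adjusted p = 0.0274). Over all genes 0.233% were higher. Il6 (0.05) did not pass. Interferon response genes had 0 of 26 that passed and 0 at an unadjusted p under 0.05. At that unadjusted p, of lists with 0 calls, 27 glycolysis genes had 1 higher and 4 lower, 31 of excitation-contraction coupling 1 and 1, 15 hosts of small nucleolar RNAs 1 and 1, and 31 chaperones 2 and 4. Of 13 histone variants Cenpa passed, of 14 tested markers of reserve myoblasts 0, of 10 of myotubes Tnnc2 and of 8 of fibroblasts Col1a1. Over all genes 0.553% passed. In the fit that leaves out MET+LEU replicate 6, 1.05% of all genes were higher and 0.629% lower. Without MET+LEU replicate 6, lists with 0 calls above gained 4 higher translation factors, 2 higher chaperones, 2 higher genes of excitation-contraction coupling, 1 higher and 1 lower aminoacyl-tRNA synthetase, 1 higher and 1 lower myogenic gene and 1 higher host of small nucleolar RNAs, and the myotube markers that passed went from 1 to 4, the reserve myoblast markers from 0 to 1, the immediate early genes from 1 to 3 and the mitochondrial ribosomal proteins from 1 to 2.

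Of 39 extracellular matrix genes 3 were lower and 0 higher, against 0.321% and 0.233% of all genes, with a median of -0.07. The count was 5 without MET+LEU replicate 6 and 1 without LEU replicate 4 or SD replicates 2 or 6, and the median was -0.04 without LEU replicate 4. Tnc (chr4:63959785-64047015), the matrix protein tenascin C, had 958, 973 and 1031 CPM in SD and 815, 869 and 921 CPM in LEU, without overlap (log2 fold change -0.18 ± 0.03, edgeR adjusted p = 0.00246). Col6a3 (-0.15) and Col1a1 (-0.20), a chain each of collagen VI and collagen I, were the others, and did not pass in 4 and 9 of the 12 fits with a LEU or SD library left out. Off the lists, Adamts12 (-0.22) and Adamts2 (-0.16), matrix proteases, of which the second trims procollagen, and C1qtnf6 (-0.24) were also lower. Tnc had a median of 656 CPM in 2% HS, so that LEU lay between 2% HS and SD. Of 35 cholesterol and fatty acid synthesis genes 0 passed, and 1 was lower without MET+LEU replicate 6. At an unadjusted p under 0.05, 0 were higher and 8 lower, where 1588 of all 15907 genes reached that p. Of the 35, 31 had a negative log2 fold change, with a median of -0.06. The list means of SD (-0.05 to 0.03) and LEU (-0.095 to -0.009) overlapped. Fads2, a desaturase of polyunsaturated fatty acids that was on no list, fell by 0.28 on the log2 scale with the smallest edgeR adjusted p after Ccna2 and Ccnb1 (0.000399).

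**Figure D5:**
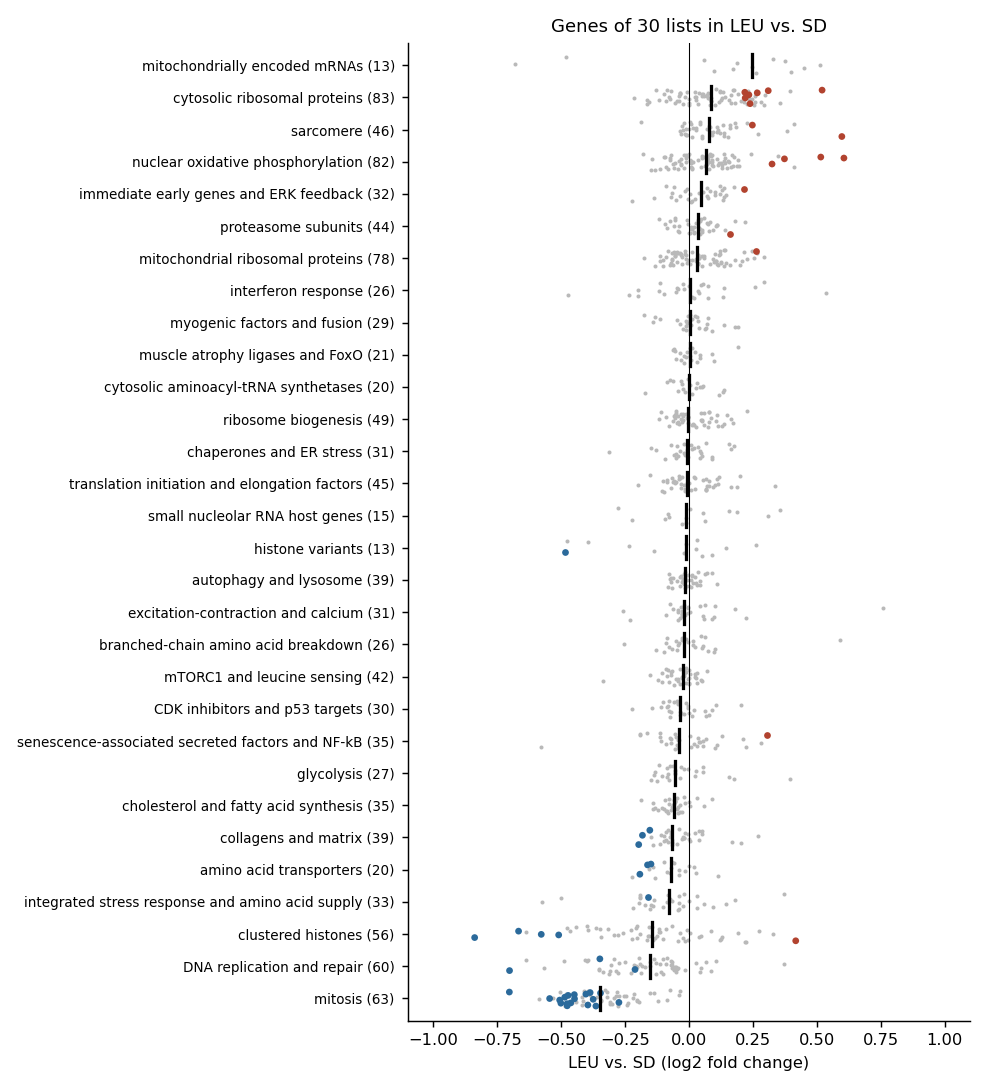
LEU vs. SD log2 fold change (horizontal axis) of the genes tested on 30 lists (rows, with the number tested), grey where the gene did not pass, blue where lower and red where higher with an adjusted p under 0.05, and black marks at the list medians. The mitosis list has the lowest median (-0.35, 18 of 63 lower) and the mitochondrial mRNAs the highest (0.25, 0 of 13 called).

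The length of genes moved with the direction of change. The median exonic length was 2457 bases in the 37 higher genes, 5386 in the 51 lower and 3835 in all genes tested. The share of counts on protein-coding genes shorter than 1000 bases was 1.04% to 1.18% in SD and 1.17% to 1.24% in LEU (two-sided p = 0.00433 by exact permutation). In MET, replicates 4, 5 and 6 had 1.19%, 1.25% and 1.26%, and replicates 1, 2 and 3 had 1.17%, 1.09% and 1.17%. Shares as high as those of LEU thus also occurred without added leucine. With an offset for length in each library, chosen after seeing the data, 86 genes passed, 70 of the 88 among them. The list counts were then 18 lower for mitosis, 8 higher for ribosomal proteins, 5 higher for oxidative phosphorylation and 2 higher for the sarcomere, whereas transporters and matrix genes fell from 3 to 1 each (Slc1a4 and Tnc). Tma7-ps, with the largest rise among the 37 higher genes (0.76), is annotated as a pseudogene, and its reads and those of its parent gene may not be told apart.

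The remaining higher genes fell into no fixed list. By fold change they included Pdcd5 (0.56), an apoptosis-related protein, Dnajc19 (0.43), a co-chaperone of mitochondrial import, Xlr (0.42), Borcs7 (0.40), of the complex that positions lysosomes, and Larp7 (0.40), which binds the 7SK RNA. Ptgfr (0.37), the prostaglandin F receptor, Cited2 (0.24), a transcriptional co-regulator, Pdcd4 (0.25), an inhibitor of translation initiation, and Srp9 (0.26), of the signal recognition particle, were described after their values were seen.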

How the data were processed

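RNA-sequencing was performed by the authors on C2C12 myotubes in 5 groups of 6 samples. Per the labels, total RNA was depleted of ribosomal RNA, made into stranded libraries and read as 150 × 150 bp pairs. The submitters' processing notes name cutadapt 1.16, STAR 2.7.6a, featureCounts 1.6.3, DESeq2 1.30.1 and GRCm38, and the strand setting is not given in the sources used here. The deposited values are raw counts per gene, whole numbers without normalization, for 55487 Ensembl genes, of which 55227 matched GENCODE M21 (GRCm38). Symbols came from RefSeq where the gene matched, and 260 genes with 0.00434% of the counts did not match.

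Genes were kept by filterByExpr (minimum count 10, minimum total count 15, group size 6), scaled by TMM and modelled with 1 mean per group over the 30 libraries in edgeR 4.0.16 (estimateDisp, robust glmQLFit) in R 4.3.3. The quasi-likelihood test was used for each contrast, and p-values were adjusted by Benjamini-Hochberg across 15907 genes, with a threshold of 0.05. Fitting all groups shares 1 estimate of the spread. CPM are TMM-scaled and are given as lowest, median and highest of 6 libraries. Replicates of a group differed by more than sampling noise (a chi-square of 2.55 to 16.2 per gene and pair). Where a gene has no count, a level of up to 3 counts in that library is allowed, or 0.164 to 0.234 CPM in SD and 0.171 to 0.213 CPM in LEU, for counting error only.

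Genes named were the 12 largest log2 fold changes in each direction among passing genes whose mean log2 CPM was 1 or more, up to 4 passing members of each list by adjusted p, and a written list of leucine, stress response and muscle genes. The members, the 30 gene lists, the marker lists and these rules were chosen with earlier results of these data known. The test was tried on simulated data and recovered most planted changes. These were larger than the median size of the called changes, and recovery of smaller ones was not tested. No simulated library was made to stand apart as MET+LEU replicate 6 did, so recovery with such a library in the model was not tested. The alternatives were other scalings, DESeq2 1.42.0, limma-voom (limma 3.58.1), other filters, other sets of libraries, a replicate block, a GC offset, a stricter threshold and leaving out each library. Added after seeing the data were the length offset, combinations with MET+LEU replicate 6 left out, and a block in LEU and SD alone. Promoter windows (RefSeq, GRCm38.p6) were searched in Python 3.11.15, taking the window nearest the annotated 5′ end. Some genes that passed are not reported here by name.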

Additional observations from a re-analysis of the deposited data

Results flagged for a closer look

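A library far from the other 5 of its group was found in 11 of 160 groups examined (76 named genes and 4 library measures in SD and LEU), and chance gives about 1 in 20. Among called genes, Cdc6 was 3.06 CPM in LEU replicate 5, with the next library at 2.05, and Tcf19 was 4.02 CPM in LEU replicate 2, with the next at 5.29. Anapc13 was 8.63 CPM in SD replicate 2, with the next at 12.8, and Larp7 was 8.43 CPM in SD replicate 4, with the next at 11.3. Of genes that did not pass, Sesn3 was 130 CPM in LEU replicate 5, Castor2 115 CPM in SD replicate 1, Rragd 10.9 CPM in LEU replicate 3, Asns 45.1 CPM in SD replicate 2, Myog 1010 CPM in LEU replicate 2 and Cdk1 17.5 CPM in SD replicate 6. Nuclear ribosomal RNA took 1.06% of the counts in LEU replicate 3, with the next library at 0.655%. Egr1 differed between the leucine additions without and with metformin, with an interaction of -0.41 on the log2 scale (edgeR adjusted p = 9.49e-05).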

How the results depend on the processing

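The LEU vs. SD count of 88 became 168 (88 higher, 80 lower) with DESeq2, 190 (108 higher, 82 lower) with limma-voom, 197 (129 higher, 68 lower) with LEU and SD alone in the model, 25 at an adjusted p under 0.01, and 296 with the length offset without MET+LEU replicate 6. Leaving out 1 LEU or SD library gave 43 to 105, MET+LEU replicate 6 alone 269, and both together 188 to 320. LEU vs. MET, 12 genes, gave 55 with DESeq2, 23 with the GC offset, 123 with limma-voom, 164 with its groups alone, 47 with the length offset without MET+LEU replicate 6, 1 at 0.01, 44 without that library and 1 to 47 over all fits with a library left out. MET+LEU vs. MET, 1382 genes, gave 589 with its groups alone, 756 with the length offset without MET+LEU replicate 6, 480 at 0.01, and 726 to 1558 with a library left out. The interaction, 8 genes, gave 28 with DESeq2, 5 with DESeq2 size factors, 4 with upper-quartile scaling, 16 with the GC offset, 5 without the robust option, 3 with genes above 5 counts in total, 14 with limma-voom, 1 with its groups alone, 1 at 0.01, and 1 to 12 with a library left out (11 without MET replicate 2). The cause was not tested. Same-numbered LEU and SD libraries did not deviate together over all genes tested (correlations from -0.03 to 0.05, and 2 of 6 SD libraries most alike their own number). This measure cannot exclude a pairing or batch that touches only some genes. With the replicate number as a block, LEU vs. SD gave 102, LEU vs. MET 21, MET+LEU vs. MET 1583 and the interaction 17, and a block in LEU and SD alone gave 227. Of 45 genes chosen by rule that passed, 0 were lost without MET+LEU replicate 6, 9 with the length offset and 5 to 21 with a LEU or SD library left out, and 0 of these changed direction. Low counts limit the precision of the least abundant genes.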

Other observations

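Principal components of the 12 libraries, from the 500 most variable genes by log2 CPM, placed LEU and SD libraries as follows. The first held 14.3% of the variance (exact permutation test, two-sided, p = 0.0931) and the second 12.8% (p = 0.407), and the gene Gm24305 supplied 15.1% and 18.6% of them. With variance-stabilized counts of DESeq2 the first component held 27.3% (exact permutation p = 0.00433).

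Of genes with an interaction, the ribosomal protein genes Rps6 (0.24) and Rpsa (0.23), Myom2 (0.30), of the sarcomere M band, and Pdha1 (0.21), of pyruvate dehydrogenase, were positive, as log2 differences. None of these 4 passed in LEU vs. SD, where they were -0.05, -0.12, -0.02 and -0.05, and all 4 were higher in MET+LEU vs. MET.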
